A study of Sthenoteuthis oualaniensis with 24 samples.

Results

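The unigenes described here are those of the "medium" form (MF) of the squid *Sthenoteuthis oualaniensis* (SA, purpleback flying squid) that were far more abundant in the intestine than in the stomach, in immature and in mature SA. A unigene is a non-redundant assembled transcript. The members were chosen from the measured values: the mean level had to be at least 20 FPKM, the number of sequenced fragments scaled to transcript length and library size, in the intestine at both stages, and at least 8 times the stomach mean at both stages, after adding 0.5 FPKM to each mean. This rule was met by 173 of the 66837 unigenes of the MF (0.259%). Because the rule used the intestine-to-stomach ratios of both stages, these ratios are given as a description and were not tested.

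RNA was sequenced from the intestine and stomach of wild-caught, untreated SA of the DF ("dwarf" form) and the MF, and 12 of the 24 libraries were of the MF. Its 4 groups had 3 libraries each: immature intestine (MUI), mature intestine (MDI), immature stomach (MUS) and mature stomach (MDS), where immature SA had maturity stages I and II and mature SA stages III to V. By the study's methods, both tissues were taken from 3 immature and 3 mature SAs of the form, so mature and immature SA are different animals. No source used here gives their ages or sexes. The libraries of a group differed little in the intestine, so any p-value measures only the spread between these libraries, which may be technical. Each library gives 1 FPKM value per unigene, with no read counts, so the read depth behind a value is unknown. Between 35861 and 36651 unigenes reached 1 FPKM in the libraries of the intestine, against 31145 to 31502 in those of the stomach. In bulk tissue, fewer cells of a type and less RNA per cell cannot be told apart.

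In squids, the stomach is a muscular sac in which food is broken up and mixed with enzymes from the digestive gland. Absorption takes place mainly in the caecum and digestive gland, and also in the intestine, which is lined by a ciliated and mucus-secreting epithelium and carries waste towards the anus. Tissue-enriched transcripts of a digestive tract commonly include enzymes, transporters and mucus components. The files pair no unigene ID with a gene name or a sequence, so the members could not be assigned to such classes, and the tissue labels could not be checked against marker genes. The members are therefore described by their ID, level and behaviour.

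The 173 members covered a wide range of levels in the intestine. The mean in MUI ran from 20.1 to 2343 FPKM with a median of 46.4 FPKM, and the mean in MDI from 20.1 to 11182 FPKM with a median of 60.7 FPKM. In the stomach, the median was 0.480 FPKM in MUS and 0.962 FPKM in MDS. The stomach mean was under 1 FPKM for 106 members in MUS and for 87 in MDS. In all 6 stomach libraries, 5 members stayed under 0.01 FPKM. The median ratio of intestine to stomach was 51.2 in immature SA and 51.7 in mature SA. The ratios reached at most 916 and 1294, and 144 of the 173 members had a ratio of at least 16 at each stage. At the edge of the rule, the smallest ratios inside were 8.02, 8.09 and 8.13, and the largest outside were 7.92, 7.90 and 7.59. The lowest intestine means inside were 20.1, 20.1 and 20.2 FPKM, and the highest outside were 19.8, 19.8 and 19.5 FPKM.

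**Figure D1:**
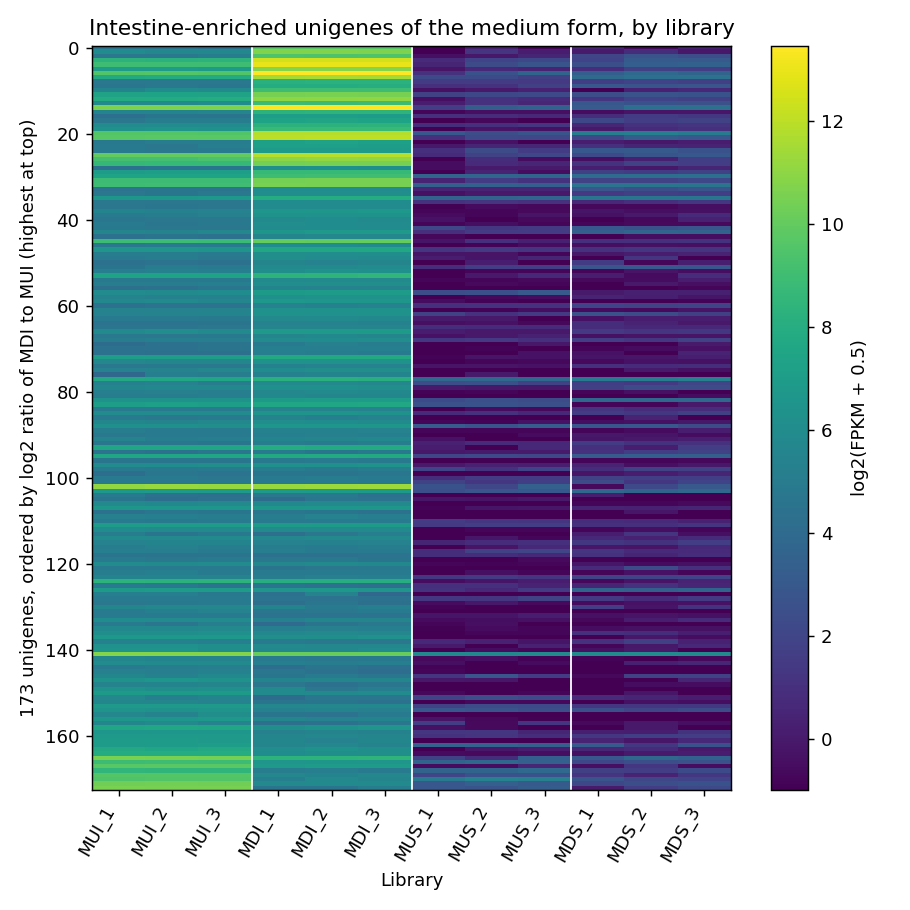
Level of the 173 intestine-enriched unigenes (rows, ordered by the log2 ratio of MDI to MUI) in the 12 libraries of the MF (columns), as log2(FPKM + 0.5). The 6 intestine libraries are bright and alike within a group, the stomach libraries are dark, and the rows at the top and bottom change brightness between MUI and MDI.

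The members were a larger part of the transcriptome in mature intestine. They took 4.06% to 4.07% of the summed FPKM in the libraries of MUI and 11.5% to 11.6% in those of MDI. In the stomach, they took 0.0560% to 0.0685% in MUS and 0.0823% to 0.0952% in MDS. The libraries of the 4 groups did not overlap in this share. Between intestine and stomach, the rule largely set this gap, so only the differences between stages within a tissue are informative here. Of the 100 unigenes with the highest mean, 6 were members in MUI, 19 in MDI and none in either stomach group, where the rule capped the means. A mean of at least 1000 FPKM was reached by 7 members in MUI and by 19 in MDI. The sum in MDI rested on few members: 6 of them held 50% of it, against 12 in MUI.

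The next question was how the members change with maturity in the intestine, the comparison of MUI and MDI that the study calls PC3. The rule bounds both means from below, so this ratio was free only within that bound. More members were higher in mature SA than lower. With limma on log2(FPKM + 0.5), an adjusted p under 0.05 over all 50834 unigenes tested and an absolute log2 fold change of at least 1, 56 of the 173 members were higher in MDI and 22 were lower. Over all unigenes tested, 21.9% were called higher and 22.7% lower. By size alone, with at least a 2-fold ratio of means and no overlap between the libraries, 55 members (31.8%) were higher and 21 (12.1%) lower, against 22.2% and 23% of the unigenes tested. A nearer background is the 2895 other unigenes that also had at least 20 FPKM in both MUI and MDI, of which 7.5% were higher and 10.3% lower. When the libraries were scaled by the median of ratios, the rule left 112 of the 173 members, of which 38 were higher and 14 lower by limma. The median log2 ratio of MDI to MUI was 0.43 over the members, -0.05 over these other unigenes and -0.03 over all unigenes tested.

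**Figure D2:**
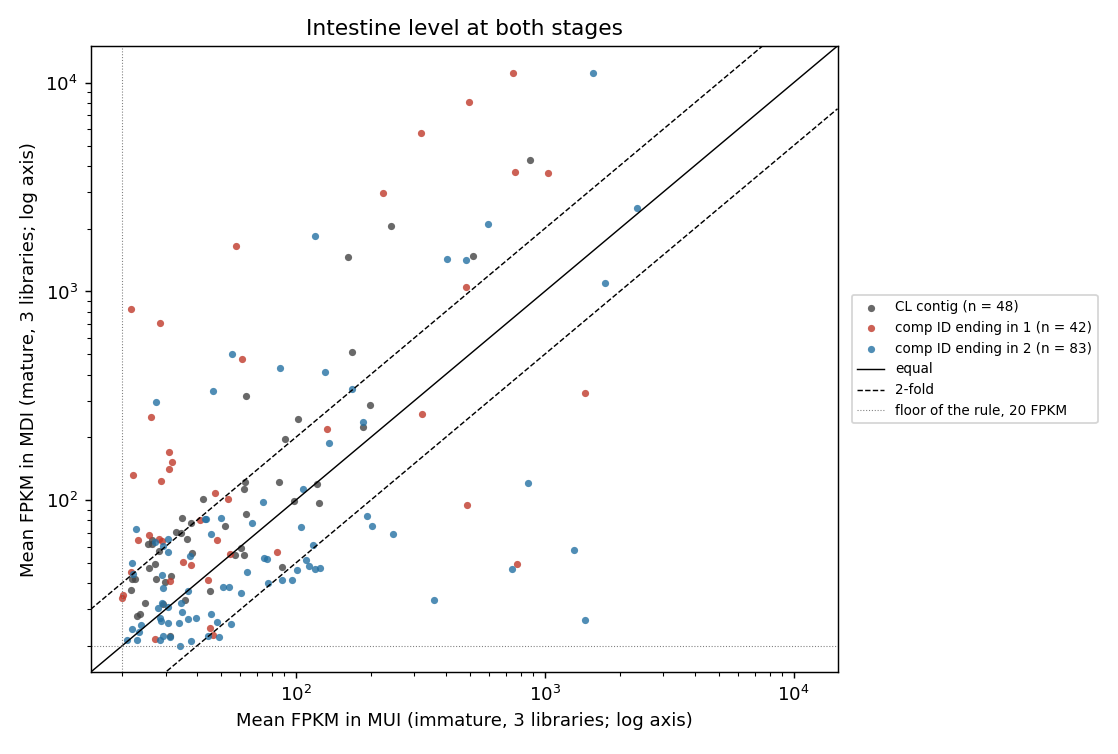
Mean FPKM of each of the 173 members in MUI (horizontal) and MDI (vertical), both on log axes, by type of ID. Of these points, 55 lie at least 2-fold above the line of equal level with no overlap of libraries and 21 at least 2-fold below it, and the highest levels are above the line.

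The members were also split by their mean over both intestine groups, which the change itself helps to set, so these counts are a description. Of the 12 members that averaged 1000 FPKM or more across MUI and MDI, 10 were at least 2-fold higher in MDI and none was lower, with a median log2 ratio of 2.57. Of the 89 other unigenes of that level with at least 20 FPKM in both groups, 3 were higher and 8 lower. Between 200 and 1000 FPKM, 15 of 26 members were higher and 7 lower, against 25 and 49 of 265 other unigenes. Between 50 and 200 FPKM, 16 of 61 members were higher and 11 lower, against 130 and 157 of 1100. Between 20 and 50 FPKM, 14 of 74 members were higher and 3 lower, against 59 and 84 of 1441. At low means, a large ratio is barred by the floor of 20 FPKM, so the shares of the classes are not compared with each other.

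The 4 most abundant members of MDI held 43.1% of the members' sum in that group. The first had 1553 to 1579 FPKM in the libraries of MUI and 10965 to 11311 FPKM in those of MDI, a ratio of means of 7.15. The second had 730 to 761 FPKM in MUI and 10892 to 11322 FPKM in MDI, a ratio of 14.99. The third and the fourth had ratios of 16.3 and 18.2. The groups did not overlap in any of these members, and their libraries lay close together within a group. Of the 19 members of at least 1000 FPKM in MDI, 17 were at least 2-fold higher there than in MUI. The other two were comp35124_c1_seq1_2 and the member at rank 18. These 19 were picked by their level in MDI, which favours members that are higher there. Of the 7 members of at least 1000 FPKM in MUI, 2 were higher in MDI, 3 were lower and 2 were neither.

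The largest rise in the intestine was that of comp57008_c1_seq1_1. It had 22.9, 23.2 and 19.3 FPKM in the 3 libraries of MUI and 838, 823 and 811 FPKM in those of MDI. The mean was 21.8 ± 2.17 FPKM (SD, n = 3 libraries) in MUI and 824 ± 13.5 FPKM in MDI, 37.8 times as high. Every library of MDI was far above every library of MUI, and the level in MUI was just above the floor of the rule. In the stomach, its values were under 0.01, 0.746 and 0.0941 FPKM in MUS and 0.875, 0.160 and 0.711 FPKM in MDS, and these groups overlapped.

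The second largest rise was that of comp24169_c0_seq1_1. Its values were 66.1, 53.3 and 54.0 FPKM in MUI and 1674, 1667 and 1624 FPKM in MDI. The means of 57.8 ± 7.16 and 1655 ± 27.5 FPKM differed 28.6-fold, with no overlap. In the stomach it had a mean of 0.821 FPKM in MUS and 0.779 FPKM in MDS, and the libraries overlapped. No change was resolved in the stomach.

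The largest fall was that of comp52647_c0_seq1_2. Its values were 1499, 1429 and 1445 FPKM in MUI and 23.6, 23.6 and 32.7 FPKM in MDI. The mean of 1457 ± 36.6 FPKM in MUI was 54.7 times the mean of 26.6 ± 5.22 FPKM in MDI. This member ranked among the 7 members of at least 1000 FPKM in MUI and was near the floor of the rule in MDI. In the stomach, it had 7.09, 6.19 and 9.24 FPKM in MUS and 0.533, 2.64 and 4.03 FPKM in MDS, and these groups did not overlap either. Its level was thus lower in mature SA in both tissues. The stomach fall was not free, however. With so low a mean in MDI, the rule itself required a mean in MDS below that in MUS.

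The second largest fall was that of comp74702_c2_seq1_2. It had 1312, 1315 and 1306 FPKM in MUI and 56.3, 59.2 and 57.0 FPKM in MDI. The mean in MUI was 22.8 times that in MDI. In the stomach, the means were 8.41 ± 1.64 FPKM in MUS and 4.91 ± 0.947 FPKM in MDS. The lowest library of MUS was above the highest of MDS, but the ratio was under 2-fold. For this member too, the rule required a lower mean in MDS than in MUS.

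Other abundant members kept nearly the same level. Of the members that differed less than 1.5-fold between the stages, the most abundant was comp35124_c1_seq1_2. Its values were 2264, 2405 and 2361 FPKM in MUI and 2439, 2550 and 2570 FPKM in MDI. It had the highest mean of all members in MUI. The means of 2343 ± 72.1 and 2520 ± 70.5 FPKM were 1.08-fold apart, and the libraries did not overlap. The next in abundance was comp62456_c0_seq2_1, with 323, 316 and 321 FPKM in MUI and 255, 259 and 261 FPKM in MDI, which is 1.24 times as high in MUI. In the stomach, the former had 5.74, 3.66 and 10.2 FPKM in MUS and 0.146, 4.02 and 7.70 FPKM in MDS, which overlapped. The latter was under 1 FPKM in every stomach library.

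**Figure D3:**
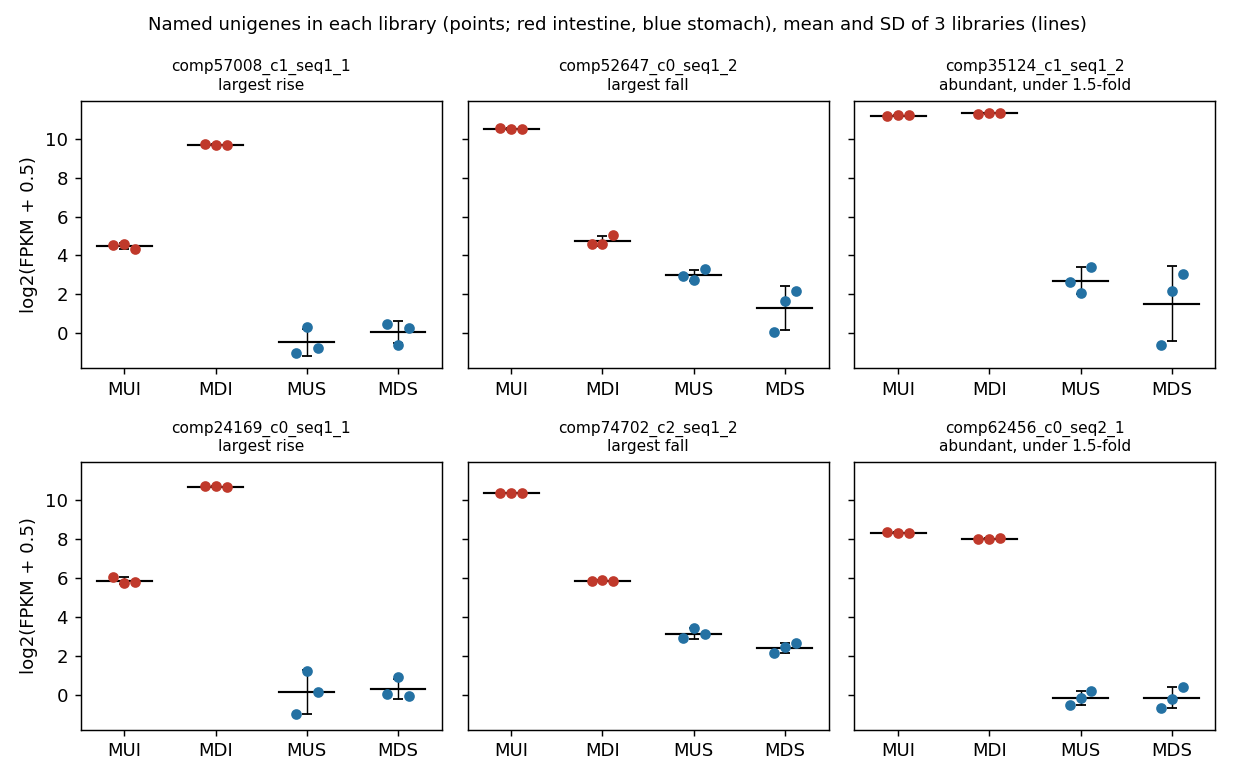
FPKM of 6 members in each library of MUI, MDI, MUS and MDS as log2(FPKM + 0.5). Points are libraries, horizontal lines the mean and bars the SD of 3 libraries. The libraries of the intestine lie close together, while those of the stomach are spread wider at their low level.

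The member with the largest smaller ratio of both stages had an intestine-to-stomach ratio of 584 in immature and 1203 in mature SA. It had 589, 567 and 628 FPKM in MUI and 2002, 2188 and 2114 FPKM in MDI. In the stomach, it had under 0.01, 1.35 and 0.208 FPKM in MUS and 0.251, 0.729 and 2.76 FPKM in MDS. Its size depends on the amount added, and the smaller ratio was 960 with 0.1 FPKM added.

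The members' IDs are of 3 types, and the change with maturity went with the type. Of the 173 members, 48 are contigs whose ID starts with CL. The other 125 have a Trinity component ID that starts with comp and ends in 1 (42 members) or in 2 (83 members). No source used here says what the last number stands for. Across the MF, 38.7% of the unigenes end in 1 and 42.5% in 2. Among all comp unigenes tested that end in 1, 52.9% were at least 2-fold higher in MDI with no overlap and 1.52% lower. Among those that end in 2, 1.99% were higher and 52.5% lower. Among the CL contigs tested, 6.18% were higher and 5.85% lower. The direction of change over the MF thus followed the last number of the ID, and the stomach showed the same: 47.8% of those that end in 1 were higher in MDS and 1.97% lower, against 3.33% and 46.9% of those that end in 2 and 8.61% and 7.11% of the CL contigs.

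Among the members, the counts also differed by type. Of the 42 members that end in 1, 23 were at least 2-fold higher in MDI and 4 lower, and their median log2 ratio was 1.13. Of the 83 that end in 2, 16 were higher and 17 lower, with a median of -0.11. Of the 48 CL contigs, 16 were higher and none was lower, with a median of 0.79. With limma, these counts were 23 and 4, 16 and 18, and 17 and 0. The other unigenes of at least 20 FPKM in both intestine groups give the background within each type. Of these, 26.1% of those that end in 1 were higher and 2.53% lower, 2.28% of those that end in 2 were higher and 29.2% lower, and 2.91% of the CL contigs were higher and 3.44% lower. In each type, the share of higher unigenes was larger among the members than in this background. For IDs that end in 1, however, the members' 54.8% was near the 52.9% of all tested unigenes of that type. The members' share of lower unigenes was also larger in that type, at 9.52% against 2.53% of this background. In the other types it was smaller than in this background. The part of the ID type in the change of single members was not tested. Both named rises end in 1 and both named falls end in 2.

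**Figure D4:**
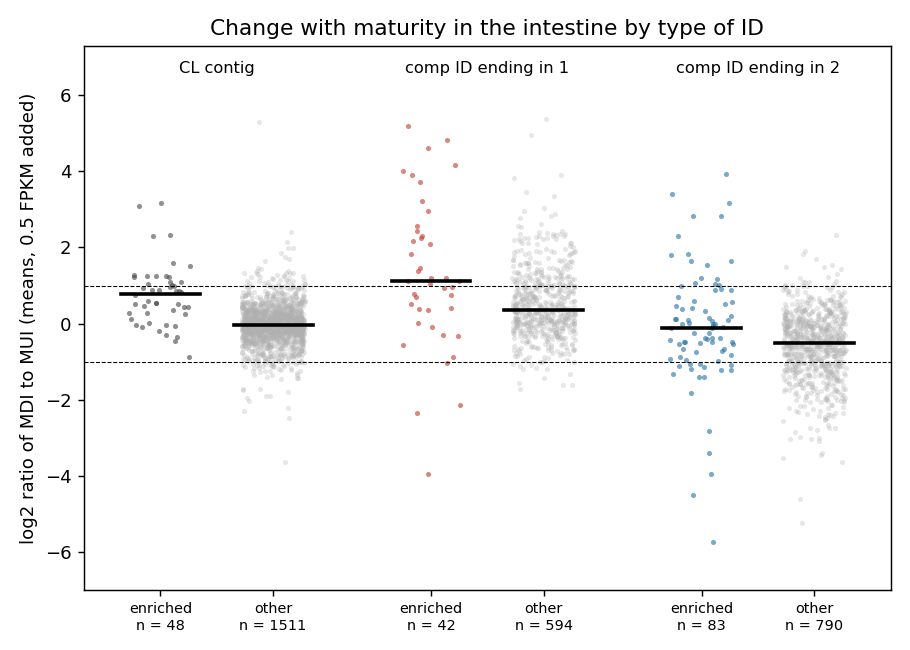
Log2 ratio of MDI to MUI for the members (enriched) and for the other unigenes with at least 20 FPKM in both groups (other), by type of ID. Points are unigenes, thick lines medians and dashed lines a 2-fold change. The members' medians of 0.79, 1.13 and -0.11 lie above those of the other unigenes of the same type, which are -0.04, 0.36 and -0.52.

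The ID type also went with the unigenes that met the rule at 1 stage only. The intestine conditions were met in immature SA alone by 335 unigenes and in mature SA alone by 353. Of the 335, 261 end in 2 and 49 end in 1. Of the 353, 248 end in 1 and 52 end in 2. The members were 48 of the 126 CL contigs that met the conditions at either stage (38.1%), against 42 of 339 that end in 1 (12.4%) and 83 of 396 that end in 2 (21.0%). Of the 335, 242 had an intestine mean under 20 FPKM in mature SA and 271 had a ratio under 8 there, and many missed both. Of the 353, 331 were under 20 FPKM in immature SA and 217 had a ratio under 8. A ratio under 8 alone left out 93 of the 335 and 22 of the 353.

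Of the 48 CL contigs, 23 belong to a single cluster of the assembly, CL1, which holds 6787 of the 12572 CL contigs of the MF. The members' share in CL1 was thus not above that of all CL contigs. With the last number of the ID kept as part of the component, each of the 125 other members is the sole unigene of its component. The same holds for all 54265 comp unigenes of the MF. Under this definition, no member shares a component with another.

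In the stomach, the members were low, and their change with maturity (MUS against MDS, the study's PC4) is described by size and overlap. No p-value is given for it, and limma was run there only as an alternative. At least 2-fold with no overlap, 36 of the 173 members (20.8%) were higher in MDS and 8 (4.62%) were lower, against 21.9% and 20.3% of the 44581 unigenes tested. The filter for that background, an average of 0.5 FPKM or more in the 6 stomach libraries, was passed by 102 members, so the shares over all 173 are not on the same footing as the background. Of these 102, 33 were higher in MDS (32.4%) and 8 lower (7.84%). A member could pass the filter through the group in which it is high, so these shares are a description too. By type of ID, 12 of the 48 CL contigs among the members were higher and 1 was lower. These counts were 11 and 2 of the 42 that end in 1, and 13 and 5 of the 83 that end in 2. Among the other unigenes of at least 20 FPKM in both intestine groups, 5.16% of the CL contigs were higher in MDS and 3.31% lower. For IDs that end in 1 these shares were 37.2% and 1.68%, and for those that end in 2 8.61% and 23.7%. For IDs that end in 1, the members' 26.2% higher was thus below this background, unlike in the intestine. In the other types it was above. The members are low in the stomach, so this background is not matched to them. Of the 55 members higher in the intestine, 19 were also higher in the stomach and none was lower. Of the 21 members lower in the intestine, 5 were also lower in the stomach and 1 was higher. The maturity ratios (log2) of intestine and stomach correlated over the 173 members with a Pearson value of 0.47 and a Spearman value of 0.43. This is a description, since the tissues came from the same SAs and members are not replicates. The rule also required the intestine mean to be at least 8 times the stomach mean at both stages. A large change in the intestine can therefore force one in the same direction in the stomach, so part of this agreement is set by the rule.

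The low stomach values differed between library numbers. Of the 19 members of at least 1000 FPKM in MDI, 15 had their lowest value of MUS in MUS_1 and 15 had their lowest value of MDS in MDS_1. The median over these members was 1.25 FPKM in MUS_1, against 3.66 and 3.81 FPKM in MUS_2 and MUS_3. In MDS it was 3.67 FPKM in MDS_1, against 6.30 and 7.27 FPKM in MDS_2 and MDS_3. In the intestine, MUI_1 was the lowest for 7 of the 19 and MDI_1 for 11. As a reference, 13755 unigenes had 1 to 10 FPKM in both stomach groups and under 20 FPKM in both intestine groups. There, MUS_1 was the lowest library for 33.5% and MDS_1 for 33.5%. Over all members with a stomach value above 0.01 FPKM in the group, MUS_1 was the lowest for 87 of 156 and MDS_1 for 85 of 162. Ties, such as several libraries at 0, were given to the lower library number, which raises these counts. Many members also lay under 1 FPKM, below the reference, so the counts over all members are not matched to it. For the 19 members, MUS_1 and MDS_1 were the lowest more often than in the reference, but these are not matched to it either. Their means ran from 0.519 to 53.8 FPKM in MUS and from 0.779 to 60.4 FPKM in MDS. Members are also not replicates, so these counts are a description. What sets MUS_1 and MDS_1 apart was not tested.

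The stomach values of the abundant members were also small and often similar shares of their intestine values. Over the 19 members, MDS was 0.0471% to 5.49% of MDI, with a median of 0.154% and quartiles of 0.117% and 0.308%. MUS was 0.0874% to 3.08% of MUI, with a median of 0.641%. For the 4 most abundant, MDS was 0.139%, 0.111%, 0.103% and 0.110% of MDI. For the same 4, MUS was 0.484%, 0.867%, 0.789% and 0.883% of MUI, and 0.0677%, 0.0578%, 0.0486% and 0.0487% of MDI. Each of these percents varied less than 2-fold among the 4. Across all 19 members, the Spearman correlation of MUS was 0.60 with MUI and 0.31 with MDI, as a description. That of MDS was 0.38 with MDI and 0.49 with MUI. The 19 were picked by their level in MDI, which cuts the range of MDI but not that of MUI. The correlations with MDI and MUI are therefore not compared with each other. Whether the low stomach values come from stomach cells was not tested.

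**Figure D5:**
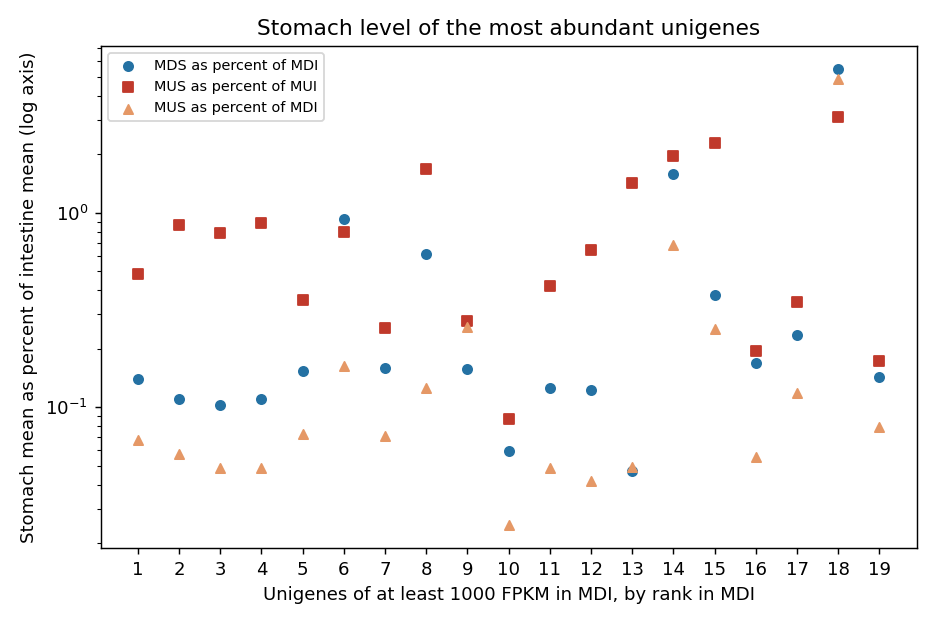
Stomach mean as a percent of an intestine mean (log axis) for the 19 members of at least 1000 FPKM in MDI, by rank. Circles are MDS as a percent of MDI, squares MUS as a percent of MUI and triangles MUS as a percent of MDI. Most circles lie near 0.1% to 0.2%, and the member at rank 18 stands above with 5.49%.

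A few members were well above this level in the stomach. The member at rank 18 in MDI had 1731 to 1760 FPKM in MUI, 1091 to 1111 FPKM in MDI, 52.6 to 55.5 FPKM in MUS and 58.7 to 62.1 FPKM in MDS. Its stomach libraries lay close together, unlike those of the 4 most abundant members, where the highest library of MUS was 3.13 to 7.36 times the lowest. The member at rank 14 had 9.45 to 10.8 FPKM in MUS and 22.7 to 23.7 FPKM in MDS, a ratio of 2.33 with no overlap. Its intestine values were 510 to 517 FPKM in MUI and 1465 to 1496 FPKM in MDI, so it was higher in mature SA in both tissues. A mean of at least 10 FPKM in the stomach was reached by 9 members in MUS and 14 in MDS, with a median coefficient of variation (CV) between libraries of 6.49% and 10.03%. Over all members, the median CV was 49.1% in MUS and 35.7% in MDS.

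The spread in the intestine shrank with the level. The median CV over the members was 4.06% in MUI and 3.998% in MDI. It was 5.67% and 6.06% for the members of 20 to 50 FPKM, and 2.003% and 1.33% for those of at least 1000 FPKM. The 2-fold changes in the intestine are therefore much larger than this spread between libraries, though the calls by size already required no overlap. Whether the 3 libraries hold the variation between animals was not tested.

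The difference between the tissues changed in both directions. The median difference of the log2 intestine-to-stomach ratios, mature minus immature, was -0.11, with a ratio at least 2-fold larger in mature SA for 35 members and in immature SA for 31. These values come from the ratios that chose the members and are a description. In 90 members, the order of the group means was MDI, MUI, MDS and MUS from the highest to the lowest, and in 37 it was MUI, MDI, MDS and MUS. The stomach means of members under 1 FPKM cannot be ordered beyond their spread.

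Other sets built with the same thresholds are set beside the members. The mirrored rule, stomach over intestine, was met by 53 unigenes of the MF. Of these, 16 were at least 2-fold higher in MDS than in MUS with no overlap and 12 lower (30.2% and 22.6%), with a median log2 ratio of 0.44. The same rule for the intestine of the DF was met by 253 of its 68627 unigenes. Of these, 17 were higher in mature intestine and 20 lower (6.72% and 7.91%), with a median of 0.07. In the DF, the other unigenes of at least 20 FPKM in both intestine groups were higher in 3.24% and lower in 1.64%. All IDs of the DF are CL contigs. The IDs of both forms come from separate assemblies and cannot be matched, so no difference between the forms was tested.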

How the data were processed

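Total RNA of intestine and stomach was made into mRNA libraries and sequenced paired-end. The authors assembled trimmed reads with Trinity into 1 unigene set per form. The deposited files hold an FPKM value for each unigene of a library. Which aligner and FPKM program made them is not given in the sources used. The values include numbers down to 1.1e-106 FPKM, so they are not whole reads, and neither read counts nor depth were derived from them. Values under 0.01 FPKM were treated as near 0 when counted.

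Groups were taken from the sample titles. Members and comparisons were chosen with earlier results of these data known. A unigene entered a comparison if its 6 libraries averaged 0.5 FPKM or more. The study names a count method for its DEGs, but FPKM are not counts. MDI and MUI were therefore compared with limma 3.58.1 (R 4.3.3) on log2(FPKM + 0.5), with an intensity trend, no covariate, 2-sided, and Benjamini-Hochberg adjustment. A log2 fold change on this scale understates changes of low values. Other steps used Python 3.11.15. The limma step was tested on simulated data. Same-numbered libraries of MDI and MUI had deviations with correlations of 0.01 to 0.05, against -0.04 to 0.03 for different numbers. No clear pairing by number was thus seen in the intestine. In MDS and MUS these were 0.11 to 0.33, against -0.21 to 0.10 for different numbers. What the library numbers share in the stomach was not tested. Members named by ID were fixed by rule: the 2 largest rises and falls from MUI to MDI with no overlap, and the 2 most abundant members that differed less than 1.5-fold. The member with the largest tissue ratio is given without its ID. Alternatives were other pseudocounts, floors, ratios and scalings, the rule on single libraries, sums per component, a replicate block, and leaving out each library.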

Additional observations from a re-analysis of the deposited data

Results flagged for a closer look

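For 1 member, the change with maturity had opposite directions in both tissues, and this difference was not tested. It had 120, 124 and 114 FPKM in MUI and 50.2, 42.0 and 48.5 FPKM in MDI, a log2 ratio of -1.34. In the stomach, it was listed at 0 in the 3 libraries of MUS and had 0.790, 0.411 and 1.10 FPKM in MDS, so the opposite direction rests on values near or under 1 FPKM.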

How the results depend on the processing

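More members were higher than lower in mature intestine under every alternative tried, while the number of members followed the rule. With an intestine floor of 10 FPKM there were 322 members (limma 101 higher and 40 lower, by size 101 and 39), and with 50 FPKM 64 members (26 and 8 by both, 19 and 3 in the stomach). Scaling by the median of ratios left 112 members (limma 14 lower, by size 13 lower, stomach 21 higher and 3 lower), and quantile normalization gave 23 higher and 3 lower in the stomach. These scalings moved the median log2 intestine-to-stomach ratio of all unigenes by -0.28 and -0.34 in immature SA, and by -0.22 and -0.28 in mature SA. All 112 and 126 members left by them were among the 173. The median of ratios divided the intestine libraries by 1.30 to 1.32 and the stomach libraries by 0.995 to 1.04. The floor stayed at 20 FPKM, so a member could drop out by its level as well as by its ratio. Before scaling, the lower intestine mean was under 25 FPKM in 31 members, and the smaller ratio under 10 in 25. With a ratio of at least 4, the stomach had 60 higher and 14 lower, and with at least 16 it had 3 lower. With 1 FPKM added, 19 were higher in the stomach, and under the rule on single libraries 3 were lower there. With a 1.5-fold threshold, 32 were lower in the intestine and 13 in the stomach. After quantile normalization, the log2 ratio of MDI to MUI was -4.41 for comp74702_c2_seq1_2, 0.24 for comp35124_c1_seq1_2 and -0.18 for comp62456_c0_seq2_1. Without 1 library at a time, there were 169 to 175 members, with 54 to 56 higher and 20 to 23 lower by limma, 54 to 56 and 19 to 22 by size, and 31 to 42 and 8 to 9 in the stomach. The replicate block left the limma counts at 56 and 22. In the stomach, limma gave 31 higher and 8 lower, and 36 and 8 with the replicate block. Sums per component changed nothing, since each component holds 1 unigene when the last number of the ID is kept as part of it. Restricting the stomach counts to the 91 members with at least 1 FPKM in a stomach group, chosen after seeing the data, gave 33 higher and 8 lower. Beyond the construction of the rules, the cause was not tested. Depth is unknown, so differences among stomach values under 1 FPKM could not be resolved.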
